A study of Mus musculus with 12 samples.

Results

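The genes described are the 9 MHC class I transcripts H2-K1, H2-D1, H2-Q4, H2-Q6, H2-Q7, H2-T22, H2-T23, H2-M3 and B2m, found by their gene symbols among 54532 genes of a deposited count table. They were measured in 12 bulk RNA-seq libraries of tumours of B16F10, a mouse melanoma line that makes pigment. The 6 iKO libraries came from hosts of genotype Trex1 fl/fl R26CreERT2-ki/wt, and the 6 Ctrl libraries from hosts of genotype Trex1 wt/fl R26CreERT2-ki/wt. Hosts in both groups were male mice aged 8 to 12 weeks that carried a Cre recombinase expressed from the Rosa26 locus and active only with tamoxifen. Each mouse received 1000 tumour cells in Matrigel in the skin of both legs on day 0 and 1 mg of tamoxifen on each of 3 days from day 5. Tumours were taken on day 14 and sorted against leukocytes (CD45) and endothelial cells (CD31). The cell type label names cells negative for both, whereas the protocol names cells negative for either. By design Trex1 was removed from host cells of any type, Ctrl hosts kept 1 intact copy, and the implanted melanoma cells were wild type. Library labels do not name the mouse, and a mouse with 2 tumours may have given more than 1 library, so the p-values measure the spread between libraries only.

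MHC class I molecules show peptides from inside a cell to CD8+ T cells. Each is a heavy chain, encoded in the H2 complex on chromosome 17, held together with the light chain B2m, encoded on chromosome 2. H2-K1 and H2-D1 are the classical, strongly expressed heavy chains. The others are non-classical: H2-T23 (Qa-1) presents leader peptides to the CD94-NKG2A receptor of NK cells, H2-Q6 and H2-Q7 belong to the Qa-2 group, H2-M3 presents N-formylated peptides, and H2-T22 is bound by some gamma delta T cell receptors without a peptide. Transcription of class I genes is raised by interferons and by the transactivator NLRC5, and B16 melanoma cells are known for low class I expression that interferon raises. Trex1 encodes a cytosolic DNA exonuclease whose loss is known to induce type I interferon. The comparison asks how class I transcripts differ in tumours when Trex1 is lost in the host.

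The promoter sequences of 6 of the genes are shown because the elements through which interferon, NF-kappa B and the class I activators are known to act on class I genes lie just before the start site. Each stretch is 120 bases, read 5′ to 3′ on the gene's strand from RefSeq promoter windows of GRCm38.p6 (250 bases before to 50 after the start). All 9 genes had a window, and H2-K1 had 2. Capitals mark matches, on either strand, to GAAANNGAA or GAANNGAAA (2 forms of an interferon-response element), to GGGATTCCC (a kappa B element) and to TGACG (a core of the CRE-like site). The stretches lie at chr17:34000348-34000467 (minus strand) for H2-K1, chr17:35262914-35263033 (plus) for H2-D1, chr17:35424668-35424787 (plus) for H2-Q6, chr17:35439012-35439131 (plus) for H2-Q7, chr17:36032735-36032854 (minus) for H2-T23 and chr2:122147518-122147637 (plus) for B2m.
H2-K1: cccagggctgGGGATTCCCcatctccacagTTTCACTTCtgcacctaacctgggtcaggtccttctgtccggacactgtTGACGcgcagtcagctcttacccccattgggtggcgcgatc
H2-D1: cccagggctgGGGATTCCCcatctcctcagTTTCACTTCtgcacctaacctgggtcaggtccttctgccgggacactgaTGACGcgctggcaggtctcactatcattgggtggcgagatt
H2-Q6: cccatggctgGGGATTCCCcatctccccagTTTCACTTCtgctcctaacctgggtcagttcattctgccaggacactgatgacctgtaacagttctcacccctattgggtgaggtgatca
H2-Q7: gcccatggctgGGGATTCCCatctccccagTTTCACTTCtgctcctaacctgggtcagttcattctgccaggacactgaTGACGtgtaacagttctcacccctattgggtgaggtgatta
H2-T23: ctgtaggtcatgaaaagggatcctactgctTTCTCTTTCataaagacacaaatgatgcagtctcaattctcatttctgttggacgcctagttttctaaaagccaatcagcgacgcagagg
B2m: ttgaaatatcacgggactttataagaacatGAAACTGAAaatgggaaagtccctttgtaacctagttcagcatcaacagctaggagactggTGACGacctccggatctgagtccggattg

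H2-K1, H2-D1, H2-Q6 and H2-Q7 shared a layout in these stretches, the kappa B element followed closely by the interferon element. H2-T23 and B2m held the interferon element with no GGGATTCCC in the window. GGGATTCCC was found in 4 of the 9 genes, against 0.353% of 32851 RefSeq windows of mouse genes. The heavy chain genes are paralogs, and the printed stretches of these 4 are much alike. Matches in such genes are not separate finds, so the counts of genes here cannot be weighed against the shares of windows. GAAANNGAA was found in 3 (H2-T22, H2-T23 and B2m), against 8.56% of windows, and GAANNGAAA, a form added after the windows had been read, in the other 6, against 7.52%. Either form was present in 14.8% of all windows; the forms overlap where 1 match extends into the other, and no member held both. TGACG was found in 7 of 9, against 20.8% of windows, which counts the letters and not a shared place. In H2-D1 it lay at -101 from the start, with the interferon element at -150. The matches lay further from that element in H2-Q4 (-73 and 31, element at -153) and in H2-T22 (-22, element at -190). The RefSeq start lay 364 bases from the start in the deposited table for H2-D1 and 154 bases for H2-T23, and a match of letters is not evidence of a bound site.

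Counts summed to 29.8 to 35.5 M per iKO library and 34.3 to 45.8 M per Ctrl library, and 16164 genes passed a filter on low counts. Trex1 was listed at 0 counts in all 12 libraries, so the genotypes could not be checked from the table. The leukocyte marker Ptprc (CD45) averaged 191 ± 108 CPM (counts over the TMM-scaled library total, times 1e6) in iKO and 3.10 ± 6.11 CPM in Ctrl (SD, n = 6 each), although the cells had been sorted against CD45. A leukocyte score, the mean log2 CPM of 10 leukocyte genes, lay between 6.87 and 7.66 in iKO 2 to iKO 6 and between 0.958 and 2.37 in Ctrl 1 to Ctrl 4 and Ctrl 6. The library iKO 1 scored 4.42 and Ctrl 5 scored 4.67, so these 2 libraries stood apart from their groups and next to each other. Values without them are given below where they move a result. In bulk libraries, a change in the cells of a type that were collected cannot be told apart from a change in RNA per cell.

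All 9 class I genes were higher in iKO. All 9 passed the filter, with at least 46 counts in each library, and all 9 were called (edgeR's quasi-likelihood test, adjusted p under 0.05 over all tested genes), where 25.0% of tested genes were called higher and 21.4% lower. Their log2 fold changes ran from 1.41 (B2m) to 5.32 (H2-Q7) with a median of 2.03, against 0.02 for all tested genes and 0.90 for the genes called higher. In each of the 9 genes the lowest iKO library was above the highest Ctrl library, which held for 11.8% of tested genes.

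The classical heavy chains H2-K1 (chr17:33996017-34000333) and H2-D1 (chr17:35262730-35267499) were the most abundant of the 8 heavy chains. H2-K1 measured 1105, 2124, 1523, 1740, 1715 and 1923 CPM in iKO 1 to iKO 6, against 398, 400, 385, 418, 502 and 377 CPM in Ctrl 1 to Ctrl 6. The lowest iKO library was iKO 1 and the highest Ctrl library was Ctrl 5, and the groups did not overlap. Its mean was 1688 ± 351 CPM in iKO and 413 ± 45.7 CPM in Ctrl (SD, n = 6 each), a log2 fold change of 2.03 ± 0.13 (approximate SE) with an adjusted p of 1.37e-07 in edgeR. H2-D1 measured 1158, 2128, 1615, 1731, 1769 and 1972 CPM in iKO 1 to iKO 6, against 444, 468, 478, 500, 590 and 445 CPM in Ctrl 1 to Ctrl 6. Its log2 fold change was 1.83 ± 0.13 (edgeR, adjusted p = 1.76e-07). Of 50-base stretches in their transcripts, 9.63% for H2-K1 and 12.8% for H2-D1 occur in another gene, and of 100-base stretches 0.957% and 3.59%.

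The Qa-2 genes H2-Q6 (chr17:35424850-35430055) and H2-Q7 (chr17:35439155-35443773) showed the greatest fold changes of the 9 and, with H2-M3, the lowest Ctrl levels. H2-Q6 measured 18.6, 142, 77.8, 106, 150 and 76.7 CPM in iKO 1 to iKO 6, against 1.78, 1.26, 1.74, 1.34, 7.74 and 1.95 CPM in Ctrl 1 to Ctrl 6. H2-Q7 measured 12.7, 115, 64.5, 103, 117 and 81.9 CPM in iKO 1 to iKO 6, against 1.24, 1.31, 1.24, 1.69, 5.79 and 1.20 CPM in Ctrl 1 to Ctrl 6. In both genes iKO 1 was far below the other iKO libraries and Ctrl 5 far above the other Ctrl libraries, without overlap between the groups. The log2 fold change was 5.19 ± 0.66 for H2-Q6 (edgeR, adjusted p = 0.000179) and 5.32 ± 0.66 for H2-Q7 (edgeR, adjusted p = 0.000147). Without iKO 1 and Ctrl 5 it was 6.11 ± 0.28 for H2-Q6 and 6.20 ± 0.21 for H2-Q7, and without Ctrl 5 alone 5.90 and 5.97, each past the threshold in edgeR. The counts of the pair are uncertain between paralogs: 10.8% of the 100-base stretches in H2-Q6 transcripts and 12% of those in H2-Q7 transcripts occur in another gene, 8.36% of the H2-Q6 stretches in H2-Q7. For 50-base stretches the shares in another gene were 32.0% for H2-Q6 and 26.4% for H2-Q7. The ratio of H2-Q6 to H2-Q7 counts was 1.19 ± 0.186 in iKO and 1.26 ± 0.313 in Ctrl (SD, n = 6 each), within the spread of the libraries.

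H2-Q4 (chr17:35379617-35385290) averaged 232 ± 46.4 CPM in iKO and 62.7 ± 4.27 CPM in Ctrl (SD, n = 6 each). Its iKO libraries ran from 163 to 306 CPM and its Ctrl libraries from 56.6 to 69.1 CPM, so the groups were apart, and the log2 fold change was 1.89 ± 0.12 (edgeR, adjusted p = 6.43e-08). H2-T22 (chr17:36037128-36042747) averaged 209 ± 51.8 CPM in iKO and 57.6 ± 7 CPM in Ctrl, so that the log2 fold change was 1.86 ± 0.15 (edgeR, adjusted p = 1.99e-06). Without strand information, reads of H2-Q4 and H2-T22 may include those of overlapping genes, since 19.1% of H2-Q4 exon bases are shared with Gm11131 and 29.4% of H2-T22 exon bases with A930015D03Rik. H2-T22 also shares 8.86% of its 100-base stretches with other genes, most of them with H2-T10. For 50-base stretches the share was 34.5% for H2-T22 and 21.8% for H2-Q4.

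H2-T23 (chr17:36029773-36032855) measured 117, 347, 219, 269, 310 and 286 CPM in iKO 1 to iKO 6, against 37.8, 38.0, 38.7, 42.4, 58.4 and 37.7 CPM in Ctrl 1 to Ctrl 6. Again iKO 1 was the lowest iKO library and Ctrl 5 the highest Ctrl library. The mean was 258 ± 81.4 CPM in iKO and 42.1 ± 8.14 CPM in Ctrl (SD, n = 6 each), and the log2 fold change was 2.61 ± 0.24 (edgeR, adjusted p = 1.48e-05). H2-M3 (chr17:37270220-37274484), the least abundant of the non-classical genes in iKO, averaged 19.8 ± 6.52 CPM in iKO and 2.42 ± 0.883 CPM in Ctrl, so that the log2 fold change was 3.03 ± 0.32 (edgeR, adjusted p = 2.00e-05). None of the 100-base stretches of H2-M3 or B2m occurred in another gene. For 50-base stretches the share was 0.576% for H2-M3 and 13.6% for H2-T23.

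The light chain B2m (chr2:122147686-122153083) had the smallest fold change of the 9 and the smallest coefficient of variation in iKO, 10.3%. It measured 1945, 2631, 2287, 2130, 2329 and 2425 CPM in iKO 1 to iKO 6, against 790, 800, 831, 953, 974 and 818 CPM in Ctrl 1 to Ctrl 6. No iKO library was near the Ctrl range. The mean was 2291 ± 237 CPM in iKO and 861 ± 80.8 CPM in Ctrl (SD, n = 6 each), and the log2 difference was 1.41 ± 0.08 (edgeR, adjusted p = 3.23e-08).

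**Figure D1:**
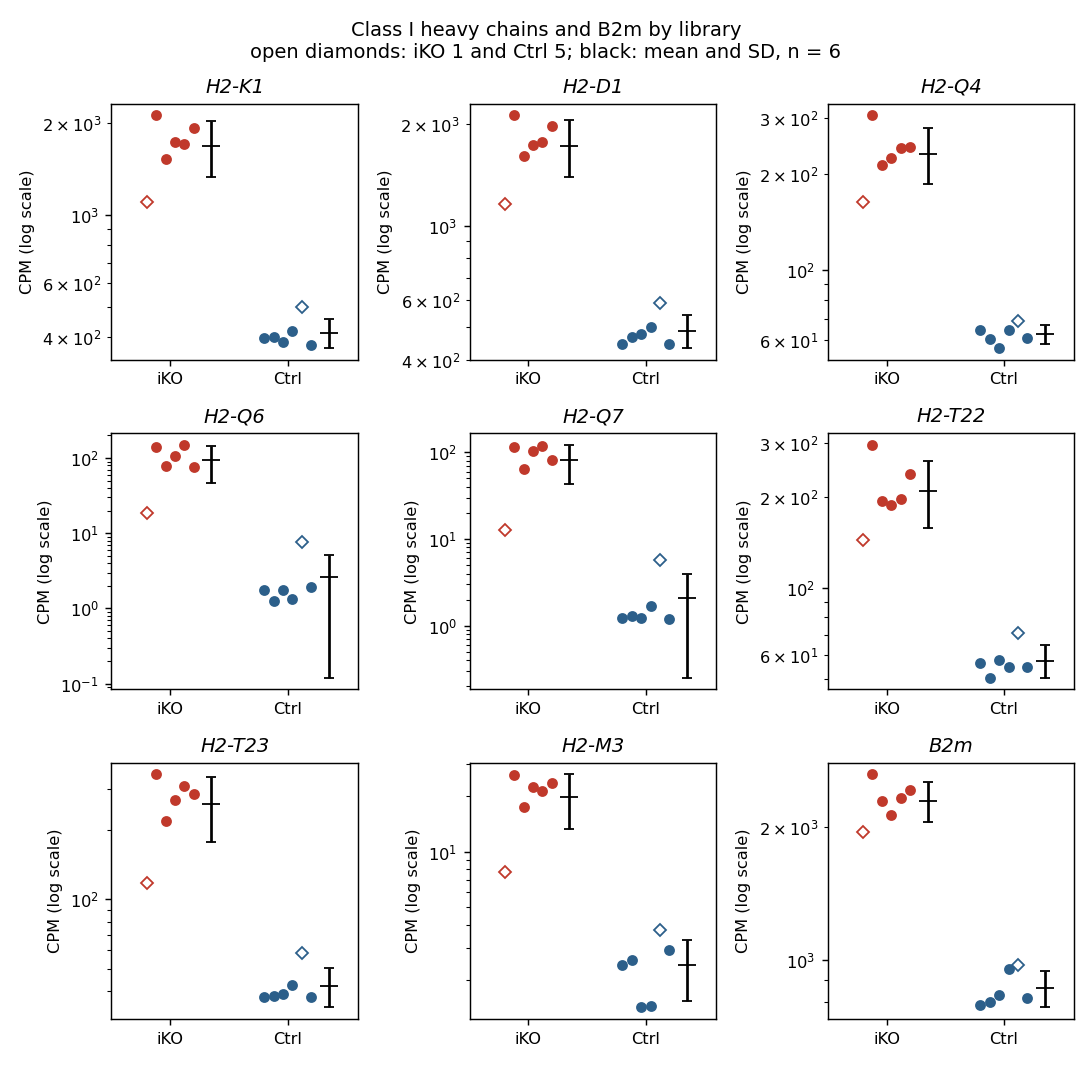
CPM on a log axis for each of the 9 genes, 1 point per library, iKO left and Ctrl right, with black bars for mean ± SD (n = 6 each) and open diamonds for iKO 1 and Ctrl 5. In all 9 panels the lowest iKO point lies above the highest Ctrl point.

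Per kb of gene length, B2m was the most abundant of the 9 in both groups, at 2664 ± 275 CPM per kb in iKO and 1001 ± 93.9 in Ctrl (SD, n = 6 each). It ranked 4 among tested genes in iKO and 25 in Ctrl. H2-D1 and H2-K1 followed at 670 ± 130 and 647 ± 135 CPM per kb in iKO, and at 189 ± 21.2 and 159 ± 17.5 CPM per kb in Ctrl. Their ranges overlapped in both groups, although H2-D1 was above H2-K1 in all 6 libraries of each. Next in iKO came H2-T23 (89.3 ± 28.2 CPM per kb), H2-Q4 (89.3 ± 17.9), H2-T22 (61.2 ± 15.2), H2-Q6 (45.6 ± 23.3), H2-Q7 (19.3 ± 9.30) and H2-M3 (13.8 ± 4.53). Each of these had a range that overlapped the next. In Ctrl the order was H2-Q4 (24.1 ± 1.64 CPM per kb), H2-T22 (16.9 ± 2.05), H2-T23 (14.6 ± 2.82), H2-M3 (1.68 ± 0.614), H2-Q6 (1.26 ± 1.21) and H2-Q7 (0.487 ± 0.428). There H2-Q4 was clear of H2-T22, and H2-T23 of H2-M3, while the other neighbours overlapped. Levels per kb depend on the deposited gene lengths. H2-Q6 and H2-Q7 lie apart per kb mostly through these (2085 and 4265 bases), as their ratio of counts was 1.19 in iKO and 1.26 in Ctrl.

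The 9 genes together took 0.652 ± 0.106% of all counts in iKO and 0.195 ± 0.0177% in Ctrl (SD, n = 6 each), with no overlap. The make-up of the heavy chains also differed. H2-K1 and H2-D1 together made 80.8 ± 2.15% of heavy chain CPM per kb in iKO and 85.5 ± 0.605% in Ctrl. H2-Q6 and H2-Q7 together made 3.77 ± 1.6% in iKO and 0.404 ± 0.304% in Ctrl, with iKO 1 at 1.15% and Ctrl 5 at 1.02%. H2-K1 stood closer to H2-D1 in iKO, at a ratio of 0.963 ± 0.024 per kb, than in Ctrl, at 0.839 ± 0.0289, and the ranges of 0.933 to 0.994 in iKO and 0.797 to 0.886 in Ctrl did not overlap. No test was run on these shares, and those per kb depend on the deposited gene lengths.

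The heavy chains were higher against B2m as well. The 8 heavy chains summed to 0.609 ± 0.0853 of the B2m level per kb in iKO and 0.406 ± 0.0233 in Ctrl (SD, n = 6 each), with iKO 1 lowest in iKO at 0.458 and Ctrl 5 highest in Ctrl at 0.439. With each gene expressed as its log2 ratio to B2m in the same library, all 8 were called higher in iKO by limma, where 5.56% of genes were called higher and 83.6% lower on that scale. H2-K1 counted 731 ± 97.8 CPM per 1000 CPM of B2m in iKO and 480 ± 30.1 in Ctrl, a log2 difference of 0.60 ± 0.10 (limma, adjusted p = 4.20e-05). H2-D1, at 749 ± 86.2 in iKO and 566 ± 29.1 in Ctrl, had the smallest difference, 0.40 ± 0.09 (limma, adjusted p = 0.000959), and its iKO 1 (596) lay below Ctrl 5 (606). H2-T22 differed by 0.42 ± 0.10 and H2-Q4 by 0.45 ± 0.09 (limma, adjusted p = 0.00103 and 0.000135). The differences were larger for H2-T23 at 1.14 ± 0.17, H2-M3 at 1.58 ± 0.28, H2-Q6 at 3.81 ± 0.45 and H2-Q7 at 3.85 ± 0.46, with adjusted p in limma between 7.61e-07 and 5.78e-05. Without iKO 1 and Ctrl 5 the differences ran from 0.48 for H2-D1 to 4.52 for H2-Q6 and 4.60 for H2-Q7, with all 8 called higher by limma, where 7.21% of genes were.

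**Figure D2:**
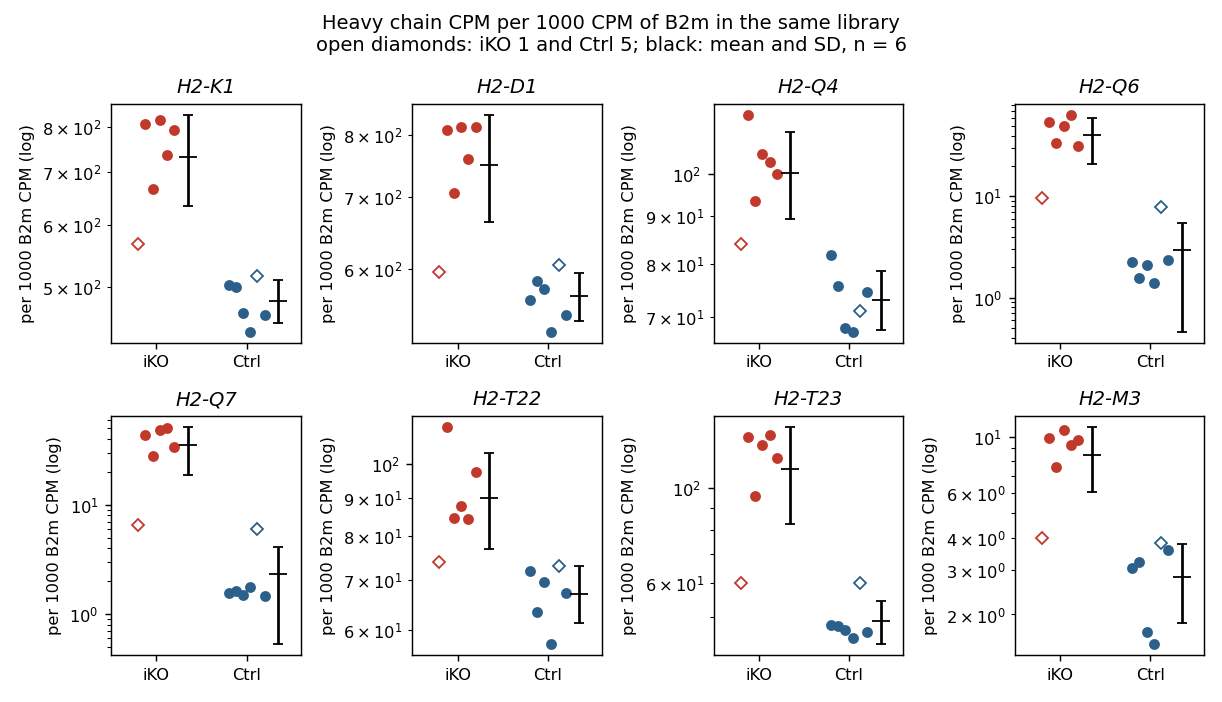
CPM of each heavy chain per 1000 CPM of B2m in the same library, on a log axis, iKO left and Ctrl right, with black bars for mean ± SD (n = 6 each) and open diamonds for iKO 1 and Ctrl 5. In 7 of the 8 panels the groups do not overlap; in the H2-D1 panel iKO 1 at 596 lies below Ctrl 5 at 606.

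Markers of leukocytes moved with the class I genes. The summed CPM of the 10 leukocyte markers was 455 to 2406 in iKO and 302 to 512 in Ctrl. Of the 10, 9 were called higher, where 25.0% of tested genes were called higher and 21.4% lower. Most of the Ctrl sum was Arhgdib, the 1 marker not called, which averaged 244 CPM in iKO and 248 CPM in Ctrl. The 11 T and cytotoxic lymphocyte markers summed to 23.9 to 315 CPM in iKO and 3.98 to 12.9 CPM in Ctrl, with 11 called higher. Several had few Ctrl counts, such as Cd3d, Cd3e and Cd8b1 with 12 each over the 6 Ctrl libraries. They could pass the filter through their iKO libraries, so the 11 calls carry no weight as a count. The 10 macrophage and monocyte markers summed to 187 to 1701 CPM in iKO and 13.7 to 268 CPM in Ctrl, with 9 called higher. In Ctrl libraries other than Ctrl 5, Ptprc lay between 0.158 and 1.54 CPM and B2m at 790 CPM or more. Cd3e and Cd8a were listed at 0 in at least 1 Ctrl library. Which cells the class I RNA of Ctrl came from was not tested. The 7 melanoma and pigment cell markers summed to 15037 to 21431 CPM in iKO and 21525 to 21914 CPM in Ctrl, with 6 called lower. The 7 fibroblast markers ranged from 620 to 14663 CPM in iKO and from 2264 to 2586 CPM in Ctrl, with 1 called higher. Endothelial markers summed to 37.2 to 87.3 CPM in iKO and 40.5 to 47.9 CPM in Ctrl, with 3 of 7 called higher, among them Pecam1 (CD31) at 10.9 ± 3.71 CPM in iKO and 4.18 ± 0.704 CPM in Ctrl. Dendritic cell, B cell and keratinocyte markers stood at sums of at most 101, 9.36 and 145 CPM in iKO and at most 13.9, 1.02 and 2.81 CPM in Ctrl. Of these lists, 3 of 4, 0 of 1 and 3 of 3 tested genes were called higher. The limit given for the lymphocyte calls holds for other listed markers with few Ctrl counts, such as Xcr1 with 18.

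With the leukocyte score as a covariate in edgeR, 6 of the 9 genes were called higher, where 6.14% of tested genes were. The log2 fold change was then 1.28 for H2-K1 (adjusted p = 0.00253), 1.11 for H2-D1 (0.00385), 1.38 for H2-Q4 (0.00291), 1.22 for H2-T22 (0.0148), 1.28 for H2-T23 (0.032) and 1.02 for B2m (0.001). H2-Q6, at 1.88 (adjusted p = 0.107), H2-Q7, at 1.67 (0.0794), and H2-M3, at 1.54 (0.0971), no longer passed in that edgeR fit. On the scale of the ratio to B2m none of the 8 heavy chains was called with the covariate (limma, adjusted p from 0.13 to 0.765, with 0 of 8 at an unadjusted p under 0.05), where 0.687% of genes were called higher. The score is largely set by group, since only iKO 1 and Ctrl 5 have scores between those of the others, so the fit rests on these 2 libraries to separate them. Without iKO 1 and Ctrl 5, all 9 genes were called (27.0% of tested genes were higher) and the log2 fold changes ran from 1.51 (B2m) to 6.20 (H2-Q7).

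**Figure D3:**
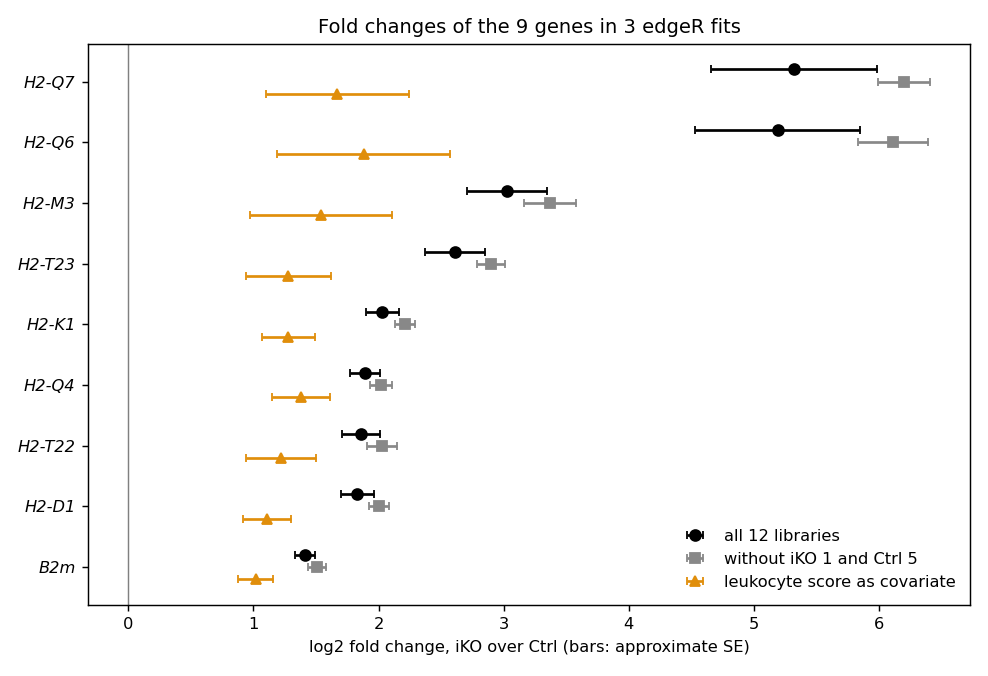
Log2 fold changes, iKO over Ctrl, of the 9 genes in 3 edgeR fits, with bars for the approximate SE: all 12 libraries (black circles), without iKO 1 and Ctrl 5 (grey squares) and with the leukocyte score as covariate (orange triangles). H2-Q6 and H2-Q7 move most between fits, from 1.88 and 1.67 with the covariate to 6.11 and 6.20 without the 2 libraries.

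The pair of iKO 1 and Ctrl 5, chosen after their values were seen, had similar leukocyte scores and was read side by side, with 1 library each and no test. Single markers were not all alike: Cd8b1 was at 1.39 CPM in iKO 1 and 0.331 CPM in Ctrl 5, and Cd14 at 4.52 and 18 CPM. Their summed leukocyte markers were 455 CPM in iKO 1 and 512 CPM in Ctrl 5, of which Arhgdib alone gave 254 and 276 CPM. Their melanoma markers summed to 21431 CPM in iKO 1 and 21525 CPM in Ctrl 5. T and cytotoxic lymphocyte markers were 23.9 CPM in iKO 1 and 12.9 CPM in Ctrl 5, and macrophage and monocyte markers 187 CPM in iKO 1 and 268 CPM in Ctrl 5. All 9 class I genes were 1.96 to 2.40 times as high in iKO 1, where the median tested gene stood at 0.988 and 17.3% of tested genes reached 1.5-fold. The ratio was 2.20 for H2-K1, 2.40 for H2-Q6 and 2.00 for B2m, so the genes lay close together in this pair. Within iKO, by contrast, iKO 1 was at 0.824 of the mean of the other libraries for B2m, 0.612 for H2-K1, 0.168 for H2-Q6 and 0.132 for H2-Q7. Ctrl 5 was at 1.16 times the mean of the other Ctrl libraries for B2m, 1.27 for H2-K1, 4.80 for H2-Q6 and 4.33 for H2-Q7. The part of leukocyte, fibroblast or melanoma cell RNA in the group difference was not tested.

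**Figure D4:**
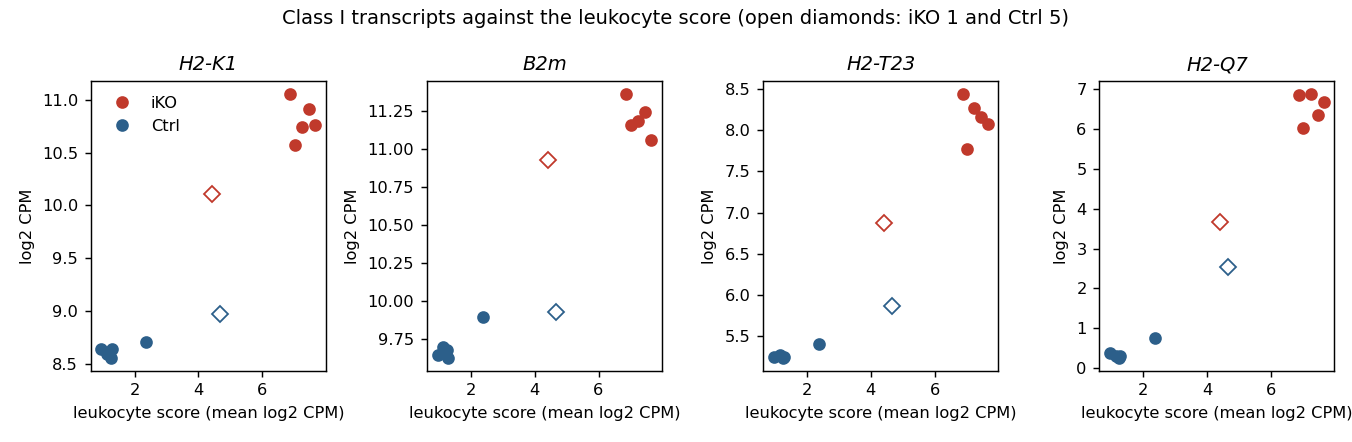
Log2 CPM of H2-K1, B2m, H2-T23 and H2-Q7 against the leukocyte score (mean log2 CPM of 10 leukocyte genes), 1 point per library, red for iKO and blue for Ctrl, with open diamonds for iKO 1 and Ctrl 5. At like scores of 4.42 and 4.67, iKO 1 lies above Ctrl 5 in all 4 panels.

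Of 26 other genes of the class I pathway, leaving aside receptors of class I, all were tested, and 17 were called higher and 4 lower in iKO. Over all tested genes, 25.0% were called higher and 21.4% lower, so the 4 lower calls are no more than that share gives. The median log2 fold change of the 26 was 1.03, against 0.02 for all tested genes. All 5 peptide supply genes were higher. The immunoproteasome subunits Psmb8, Psmb9 and Psmb10 changed by 2.63 ± 0.19, 2.24 ± 0.18 and 1.35 ± 0.13 on the log2 scale, and the proteasome activator subunits Psme1 and Psme2 by 1.05 ± 0.09 and 1.02 ± 0.22; Psme2 was at -0.26 and not called once the leukocyte score was a covariate (edgeR, adjusted p = 0.703). Among transport and loading genes, 5 of 8 were higher: the peptide transporter subunits Tap1 (2.33 ± 0.12) and Tap2 (2.11 ± 0.12), the loading factors Tapbp (1.83 ± 0.11) and Tapbpl (1.62 ± 0.11), and the trimming peptidase Erap1 (1.46 ± 0.08). The general chaperones Calr, Canx and Pdia3 were called lower, by small amounts of -0.27, -0.34 and -0.27, and all 3 calls were lost with the leukocyte score as covariate (-0.33, -0.00013 and -0.28; edgeR, adjusted p = 0.0706, 1 and 0.179). Without the covariate, the adjusted p of the calls in these lists was at most 0.00339 in edgeR.

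Among 9 transcription factors of class I genes, 5 were higher, 1 was lower and 3 were not called, where 25.0% of tested genes were called higher and 21.4% lower. The transactivator Nlrc5 measured 153 to 295 CPM in iKO and 37.6 to 53.2 CPM in Ctrl, and differed by 2.39 ± 0.14 on the log2 scale (edgeR, adjusted p = 9.01e-08). Ctrl 5, the Ctrl library with the highest class I levels, had the lowest Nlrc5. Within iKO, by contrast, iKO 1 had the lowest Nlrc5 (153 CPM) and the lowest level of each class I gene. The highest Nlrc5 was in iKO 2 (295 CPM), also highest for H2-K1, H2-D1 and B2m, while iKO 5 was highest for H2-Q6 and H2-Q7. Whether class I levels followed Nlrc5 between libraries was not tested. Irf1 (1.82 ± 0.14) and Irf2 (1.09 ± 0.12), factors of the interferon response, were higher, Nfkb1 (0.62 ± 0.09) and Rfx5 (0.43 ± 0.09) rose less, and Rfxap, which works with Rfx5, fell by 0.39 ± 0.08 on the log2 scale. With the leukocyte score as covariate, Irf2 (0.53) and Nfkb1 (0.23) were no longer called (edgeR, adjusted p = 0.212 and 0.491). Among 4 class I-like molecules that pair with B2m, Cd1d1 (1.41 ± 0.39), which presents lipids, and Fcgrt (0.64 ± 0.13), the neonatal Fc receptor, were higher and 2 were not called. Neither Cd1d1 (1.12) nor Fcgrt (0.17) was called with the covariate (edgeR, adjusted p = 0.553 and 0.711). Over the 26 genes, 12 were called higher and 1 lower with the covariate. Of all tested genes, 6.14% were then called higher, and 1074 of 16164 lower.

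Receptors that bind class I, which leukocytes carry, had few counts in Ctrl, and most of those were in Ctrl 5. The T cell coreceptor chain Cd8a had 5564 counts over the 6 iKO libraries, against 48 over the 6 Ctrl libraries, of which 42 were in Ctrl 5. Cd8b1, the other chain, had 2270 counts in iKO and 12 in Ctrl, all 12 in Ctrl 5. The H2-T23 receptor chains Klrc1 (NKG2A) and Klrd1 (CD94) had 1710 and 1533 counts in iKO, against 19 and 12 in Ctrl, of which 18 and 9 were in Ctrl 5. Pirb, an inhibitory receptor of myeloid cells, had 14342 counts in iKO and 376 in Ctrl, of which 328 were in Ctrl 5. Cd8a averaged 28.6 ± 15 CPM in iKO and 0.219 ± 0.462 CPM in Ctrl (SD, n = 6 each). Of 12 listed receptors, 7 passed the filter, which they passed through their iKO libraries, so that their calls carry no weight as a count. Their fitted fold changes rest on Ctrl 5 and are not given.

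**Figure D5:**
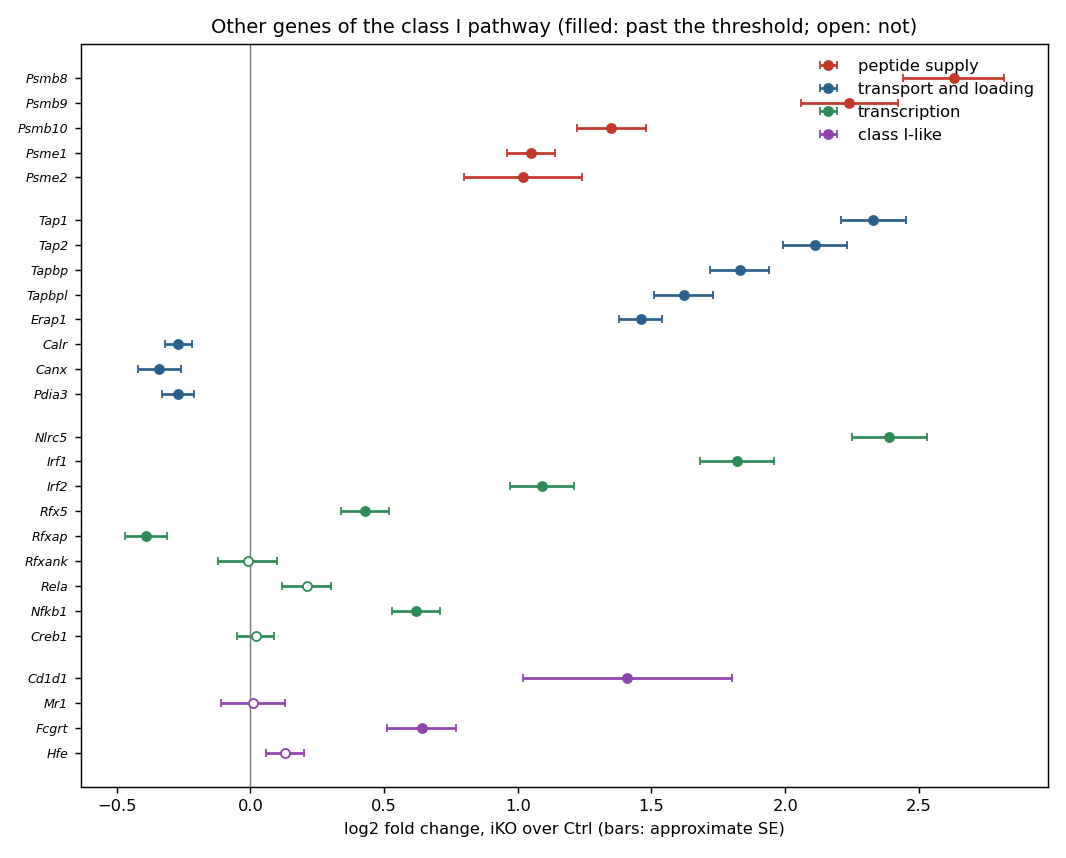
Log2 fold changes, iKO over Ctrl, of 26 pathway genes by role, without the receptors, with bars for the approximate SE; filled points are past the edgeR threshold, open points are not. All 5 peptide supply genes lie right of 0, and Calr, Canx, Pdia3 and Rfxap are the called genes left of it.

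Of 24 other class I genes of the H2 complex in the table, 17 did not pass the filter, 6 of these with no count in any library. Of the 7 tested, 6 were called higher and 1 was not called, where 25.0% of tested genes were called higher. H2-Q10, H2-Q5 and H2-T-ps had 43, 142 and 66 counts over the 6 Ctrl libraries, against 183, 3713 and 359 in iKO. They could pass the filter through their iKO libraries, so the number of calls carries little weight. After adding the leukocyte score to the edgeR fit, H2-T10 was the 1 gene of the 7 still called, where 6.14% of tested genes were called higher. H2-T24 (1.62, adjusted p = 0.14) and H2-Q5 (0.79, adjusted p = 0.687) were among the calls lost in that edgeR fit. H2-T24 averaged 19.2 ± 7.87 CPM in iKO and 0.834 ± 0.461 CPM in Ctrl (SD, n = 6 each), and the log2 difference was 4.53 ± 0.51 (edgeR, adjusted p = 5.61e-05). The changes were 4.99 ± 0.88 for H2-Q5 (6.02 without Ctrl 5), 3.54 ± 0.27 for H2-T10, 2.72 ± 0.40 for H2-T-ps and 0.99 ± 0.17 for H2-K2, which the annotation lists as pseudogenes, some of them polymorphic. The other gene called was H2-Q10, which averaged 0.931 CPM in iKO and 0.182 CPM in Ctrl. Reads may be shared between these genes and the 9.

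Among 13420 tested protein-coding genes outside the 9, those nearest to the median profile of the 9 over the 12 libraries were Tap2 (root mean square difference of 0.13 on the log2 scale), Rtp4 (0.14), Xaf1 (0.14), Stat2 (0.14) and Trafd1 (0.15). Among the 9 themselves, the difference from that profile was 0.03 for H2-K1, 0.14 for H2-Q4, 0.15 for H2-D1, 0.16 for H2-T22, 0.42 for H2-T23, 0.45 for B2m and 0.79 for H2-M3. H2-Q6 (2.39) and H2-Q7 (2.42) were far from it.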

How the data were processed

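The table deposited by the authors held raw counts per gene for 12 libraries of 1 sequencing batch. The deposited gene length (bases, in the unit other) was used for levels per kb. Reads were placed on mm10, per the submitters' processing notes. Which aligner and counter were used is not given in the sources used here. Poly-A RNA was made into libraries without strand, per the labels' protocols. The library source is labelled single cell, but the table has 1 column per tumour, so libraries were treated as bulk.

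The test was edgeR 4.0.16 (robust quasi-likelihood, TMM) in R 4.3.3 after its filter (minimum count 10, total 15; tested genes held 99.9% of counts), with Benjamini-Hochberg adjustment over the 16164 tested genes and a threshold of 0.05. An SE was approximated from the log2 fold change and the F statistic (its absolute value over the root of F). Ratios to B2m used limma 3.58.1 on log2 CPM (prior count 2). DESeq2 1.42.0, limma voom and other alternatives were also run. No 2 libraries of a group were alike within sampling noise (chi-square per degree of freedom 7.47 or more). The tests were tried on simulated counts with genes changed by known folds. The changed genes were drawn from the less variable ones and no simulated library stood apart. Genes as variable as H2-Q6 and H2-Q7 were thus not covered. Promoters came from RefSeq (GRCm38.p6), exon overlaps from GENCODE M21. Named genes are the 9 members, Trex1, Ptprc, Pecam1, listed pathway genes, 5 nearest patterns and called H2 class I genes; 1 gene of the pathway list is not reported here and is left out of its counts. The members and lists were chosen with earlier results of these data known.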

Additional observations from a re-analysis of the deposited data

Results flagged for a closer look

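In 8 of 34 sets of 6 libraries looked at (the 9 CPM and 8 B2m ratios in each group), 1 library lay far from the others of its group by Dixon's test. In all 8 it was Ctrl 5 above the other Ctrl libraries. Chance flags about 1 in 20 unrelated sets, but these sets share their libraries and B2m. The 8 flags are of 1 library and cannot be set against that rate. In CPM these were H2-K1 at 502, H2-Q6 at 7.74, H2-Q7 at 5.79, H2-T22 at 71.1 and H2-T23 at 58.4. Per 1000 CPM of B2m they were H2-Q6 at 7.95, H2-Q7 at 5.94 and H2-T23 at 59.9. Ctrl 5 also had the highest leukocyte score of Ctrl, 4.67, and its part in these values was not tested.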

How the results depend on the processing

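Of 189 alternative values of the 9 fold changes, 186 kept their direction and call, under other scalings, no filter on low counts, DESeq2, limma voom, the replicate block and each left-out library. The 3 lost calls, H2-Q6, H2-Q7 and H2-M3, were under the leukocyte score as covariate. With that covariate the calls over all genes were 992 higher and 1074 lower, against 4037 and 3464 without it, those of the pathway list, its 7 tested receptors included, 14 higher and 1 lower, against 24 and 4, and those of the ratio to B2m 0 higher (limma; smallest unadjusted p 0.0894); Psme2 turned to -0.26 and Pecam1 to -0.13. Leaving out 1 library in turn gave 3707 to 4484 genes higher and 2671 to 3750 lower over all genes. It gave 9 members higher and 0 lower, and 8 ratios to B2m higher and 0 lower. In the pathway, 5 peptide supply, 5 transport and loading, 5 to 6 transcription and 2 class I-like genes were higher. Those lower were 3 of transport and loading and 1 of transcription. Receptors of class I called ran from 7 to 11, as more of them passed the filter, and 12 with no filter. Replicate numbers did not pair the libraries (same-number correlations of -0.129 to 0.249, own number best in 1 of 6); with the replicate block 3489 genes were higher and 2984 lower, and all 9 members were called. Depth limits H2-Q6, H2-Q7 and H2-M3 most, with 46 to 281 counts per Ctrl library.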
